A study of Mus musculus with 20 samples.

Results

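The genes described here are the SR proteins, the heterogeneous nuclear ribonucleoproteins (hnRNPs), the CLK kinases, the TRA2 proteins and a pair of cold-inducible RNA-binding proteins. They were chosen by gene symbol, with no use of measured values, and 39 of the 14700 genes in the deposited tables matched. The 39 genes were 11 SR proteins (Srsf), 20 hnRNPs (Hnrnp), 4 CLK kinases (Clk1 to Clk4), 2 TRA2 proteins (Tra2a and Tra2b) and 2 cold-inducible proteins (Cirbp and Rbm3). Each of the 39 was present in all 4 tables, and the tables held only genes that had passed the authors' filter. They were measured by RNA sequencing of 20 libraries from primary mouse cortical neurons, which were isolated at embryonic day 15 and kept in culture for 7 days. The groups N_WT and OGD_WT were labelled wild type, and N_KO and OGD_KO were labelled knockout of ciRS-7, a circular RNA listed in the tables as Cdr1as. Each group had 5 libraries, and the strain label C57BL/6N-Cdr1asem1Nikr was the same for wild-type and knockout cultures. The N cultures had fresh medium with 25 mM glucose and 0.2 mM pyruvate at 5% CO2. The OGD cultures (oxygen and glucose deprivation, a cell culture model of ischaemia) had medium without these additions, at 1% oxygen and 5% CO2. Both treatments lasted 12 h, so loss of oxygen, glucose and pyruvate came together and cannot be told apart. The labels do not say whether the 5 cultures of a group came from separate litters, so the p-values measure the spread between these cultures only.

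SR proteins bind exonic sequences through RNA recognition motifs and recruit the spliceosome through a domain rich in arginine and serine. CLK kinases phosphorylate that domain in the nucleus and release SR proteins from nuclear speckles, and the TRA2 proteins bind purine-rich exonic elements in a similar way. Most hnRNPs coat nascent RNA and often oppose the inclusion of the exons they bind. Many genes of these families limit their own output by splicing in an exon with a premature stop codon or by keeping an intron, so their RNA level combines forms with and without coding potential. Cirbp and Rbm3 encode small glycine-rich RNA-binding proteins best known for rising when cells are mildly cooled.

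Recovered reads numbered from 7071506 to 13168705 in N_WT, from 9217019 to 16658618 in OGD_WT, from 7580741 to 14762866 in N_KO and from 7494946 to 14523455 in OGD_KO. Cdr1as stood at 6.50 ± 0.13 log2 CPM in N_WT and 6.52 ± 0.51 in OGD_WT, against 0.32 ± 0.42 in N_KO and 0.34 ± 0.66 in OGD_KO (SD, n = 5). Replicates 1 and 3 stood apart from the other libraries of their groups, in all 4 groups, by lying near the group's centre. Replicate 3 was the lowest or highest of its 5 libraries in 6.09% to 13.7% of genes and replicate 1 in 17.5% to 20.5%, where 40% would follow if no library were more central than another. Replicates 2, 4 and 5 were extreme in 52.0% to 60.7% of genes. The standard deviation of a library's distance from its group mean was 0.0666 to 0.103 log2 units for replicate 3, 0.113 to 0.117 for replicate 1 and 0.262 to 0.418 for the others, over genes averaging 4 log2 CPM or more. Replicate 3 carried a batch label held by 2 libraries (3.2 in wild type, 2 in knockout), replicate 1 a label held by 4 (batch 1), and the other replicates labels held by 6 (3.1 and 3.3). Whether the values had been adjusted for batch before deposit was not tested, and the p-values over 5 libraries may be too small. Except for cell type markers, the counts of genes called, and the genes that then stayed called, are therefore also given over replicates 2, 4 and 5 alone.

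Under OGD most members of these families that changed went up, in both genotypes. In wild-type cultures 20 of the 39 genes rose and 3 fell (Cirbp, Srsf12 and Srsf7) at a limma adjusted p under 0.05. In the same comparison 44.3% of the 14235 genes tested were called, 21.6% as higher under OGD and 22.8% as lower. In knockout cultures 18 of the 39 genes rose and 2 fell (Cirbp and Srsf12), where 40.9% of 14375 genes were called, 21% as higher and 19.9% as lower. The median log2 fold change of the 39 genes was 0.39 in wild type and 0.40 in knockout, and that of all genes was -0.03 and 0.00. By family, the wild-type counts were 3 of 4 CLK kinases up, 1 of 2 TRA2 proteins up, 6 of 11 SR proteins up and 2 down, 10 of 20 hnRNPs up and none down, and 1 of 2 cold-inducible proteins down. In knockout they were 3 of 4, 1 of 2, 5 of 11 up and 1 down, 9 of 20 up, and 1 of 2 down.

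The genotypes share no libraries in these comparisons. Of the 39 genes, 18 rose in both genotypes (46.2%) and 2 fell in both, where 18.0% of the 14097 genes tested in both rose in both and 17.9% fell in both. Hnrnpdl, Srsf6 and Srsf7 were called in wild type alone, no member in knockout alone, and 16 in neither. All 5 OGD libraries lay above all 5 normoxic ones for 12 of the 39 genes in wild type and 10 in knockout, where 13.9% and 13.4% of all genes did. All 5 lay below for 2 genes in each genotype, where 13.1% and 12.4% of all genes did.

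Fewer genes were called without replicates 1 and 3. With replicates 2, 4 and 5 only, 7 of the 39 genes were called in wild type (limma, Benjamini-Hochberg), namely Clk1, Clk3, Clk4, Tra2a, Srsf11 and Hnrnpll up and Cirbp down. Of the 39 genes, 15.4% were thus called up and 2.56% down. The share of all genes called was then 16.9% (8.01% up and 8.93% down). In knockout 4 of the 39 were called (10.3%), Clk1, Clk3, Clk4 and Tra2a, all up. Of all genes, 16.3% were called (8.28% up and 8.01% down). The knockout share called up was thus close to that of all genes, and the share called in either direction was lower. The median change of the 39 genes hardly moved, at 0.43 in wild type and 0.38 in knockout. Within the batches labelled 3.1 to 3.3, which leaves out replicate 1 in wild type, 17 genes were called, against 34.5% of all genes, and in knockout this leaves replicates 2, 4 and 5. Without replicate 3 alone, 13 genes were called in wild type and 14 in knockout, against 30.3% and 28% of all genes. With the replicate number as a block, the same 23 genes were called in wild type (39.9% of all genes) and 15 in knockout (33.6% of all genes), where Hnrnpa3, Hnrnpc, Hnrnpf, Hnrnpk and Srsf9 were lost.

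**Figure D1:**
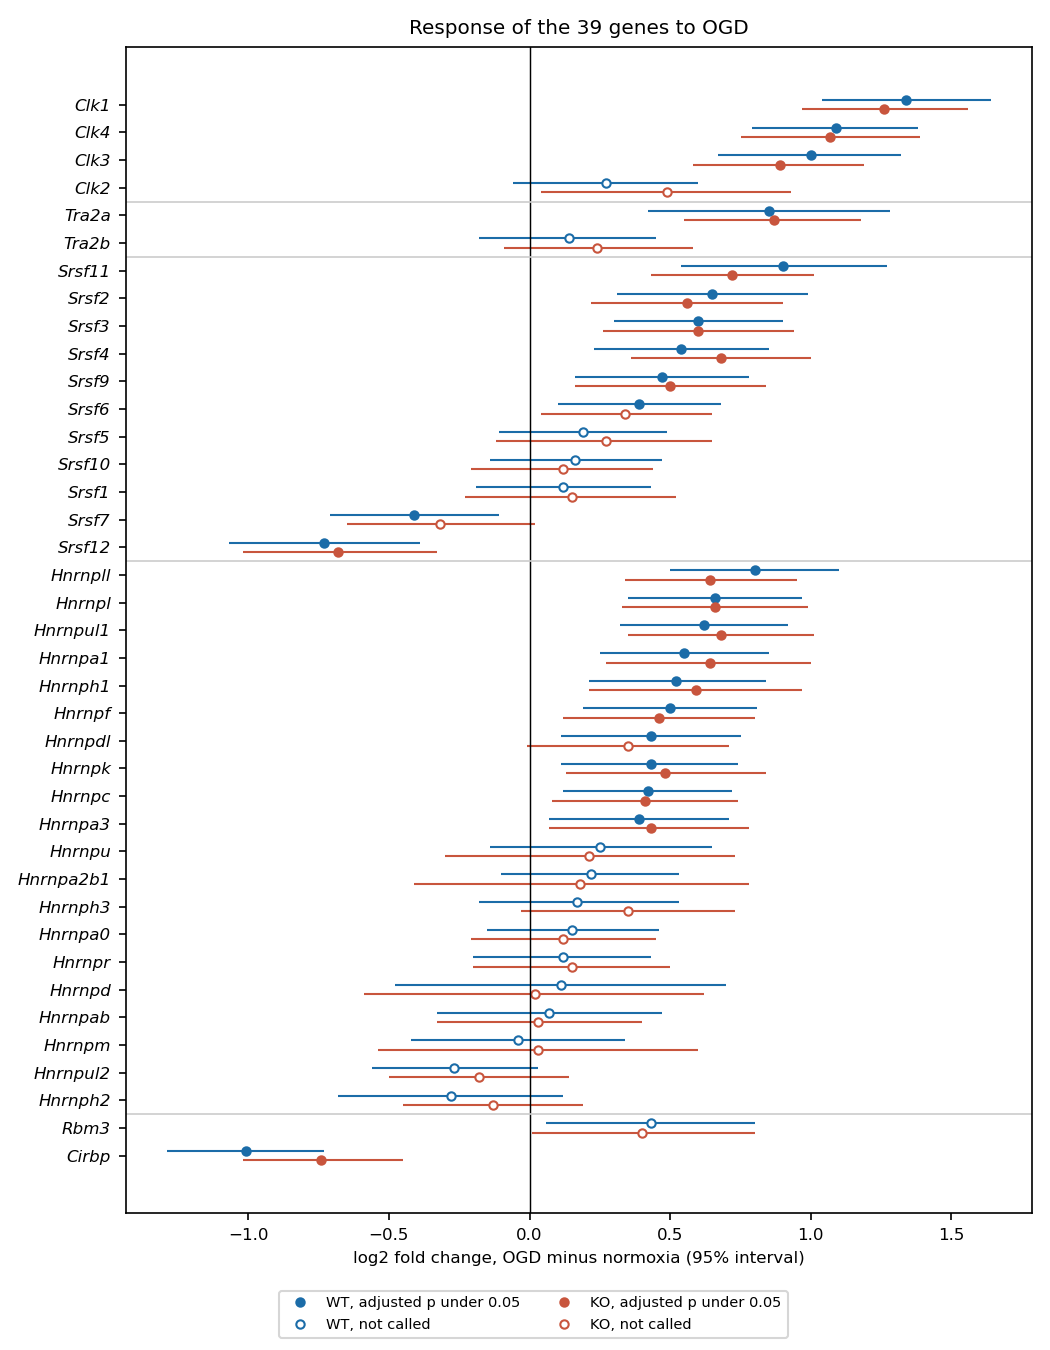
Log2 fold change under OGD (OGD minus normoxia, horizontal axis) of each of the 39 genes, grouped by family and ordered within it by the wild-type change. Points are limma estimates from 5 against 5 libraries, bars are 95% intervals, and filled points have an adjusted p under 0.05. Clk1 is highest at 1.34 in wild type and Cirbp lowest at -1.01, and the wild-type and knockout estimates of each gene lie close together.

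The CLK kinases showed the largest rises, and 3 of the 4 roughly doubled. Clk1, which phosphorylates the arginine and serine domain of SR proteins and whose own RNA is partly held in the nucleus with introns retained, stood at 6.04, 6.26, 6.06, 5.79 and 5.92 log2 CPM in N_WT replicates 1 to 5. In OGD_WT it stood at 7.47, 7.63, 7.21, 7.30 and 7.16. Every OGD library was above every normoxic one by at least the spread of either group. The change was 1.34 ± 0.15 on the log2 scale (SE, n = 5 per group), a 2.53-fold rise (limma adjusted p = 3.65e-07). In knockout cultures Clk1 went from 5.93, 5.91, 6.04, 6.03 and 5.96 to 7.17, 7.56, 7.28, 7.26 and 6.92. These groups did not overlap either, and the change was 1.26 ± 0.14 (limma adjusted p = 2.23e-06). Over replicates 2, 4 and 5 alone Clk1 rose by 1.38 and 1.28 (limma adjusted p = 0.000299 and 0.00146).

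Clk4, the closest relative of Clk1, followed the same course at a slightly smaller size. Its log2 CPM was 5.99, 5.83, 5.87, 5.79 and 6.03 in N_WT and 7.01, 7.32, 6.98, 6.77 and 6.87 in OGD_WT. In knockout it was 5.82, 5.46, 5.85, 5.98 and 6.03 in normoxia and 6.82, 7.27, 6.91, 6.75 and 6.73 under OGD. The groups were apart in both genotypes, with replicate 2 the highest of the OGD libraries in each. Clk4 rose 2.12-fold in wild type (1.09 ± 0.14 on the log2 scale, limma adjusted p = 3.45e-06) and 2.1-fold in knockout (1.07 ± 0.15, adjusted p = 2.82e-05). In replicates 2, 4 and 5 alone it rose by 1.10 and 1.10 (limma adjusted p = 0.00519 and 0.00752).

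Clk3 was measured at 4.55, 4.46, 4.59, 5.03 and 4.15 log2 CPM in N_WT and at 5.56, 5.76, 5.48, 5.38 and 5.58 in OGD_WT. The knockout values were 4.59, 4.42, 4.55, 4.95 and 4.34 in normoxia and 5.47, 5.34, 5.51, 5.69 and 5.28 under OGD. Normoxic replicate 4 was the highest normoxic library in both genotypes and still lay below the lowest OGD library. The rise was 1.99-fold in wild type (1.00 ± 0.16, limma adjusted p = 3.46e-05) and 1.85-fold in knockout (0.89 ± 0.15, adjusted p = 0.000116). The 3 libraries left without replicates 1 and 3 gave 1.03 and 0.86 (limma adjusted p = 0.00915 and 0.0347). Clk2 was not called in either genotype over all 5 replicates. It stood at 4.70, 4.63, 4.66, 4.17 and 5.03 in N_WT and 5.09, 5.04, 4.86, 4.66 and 4.89 in OGD_WT, and at 4.31, 4.65, 4.60, 4.83 and 4.39 in N_KO and 5.03, 5.13, 5.04, 4.22 and 5.80 in OGD_KO. The groups overlapped in both genotypes, and replicates 4 and 5 of OGD_KO lay furthest apart. The estimates were 0.27 (95% interval -0.06 to 0.60) and 0.49 (0.04 to 0.93), with limma adjusted p of 0.174 and 0.072, and of 0.637 and 0.374 over replicates 2, 4 and 5. Leaving out 1 replicate moved the knockout estimate between 0.26 and 0.76, and its adjusted p between 0.0056 (without replicate 4) and 0.244. In wild type the adjusted p ran from 0.0485 (without replicate 5) to 0.376, and with the clipping left in Clk2 passed in both (0.044 and 0.00586). Whether Clk2 responded less than the other 3 kinases was not tested.

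**Figure D2:**
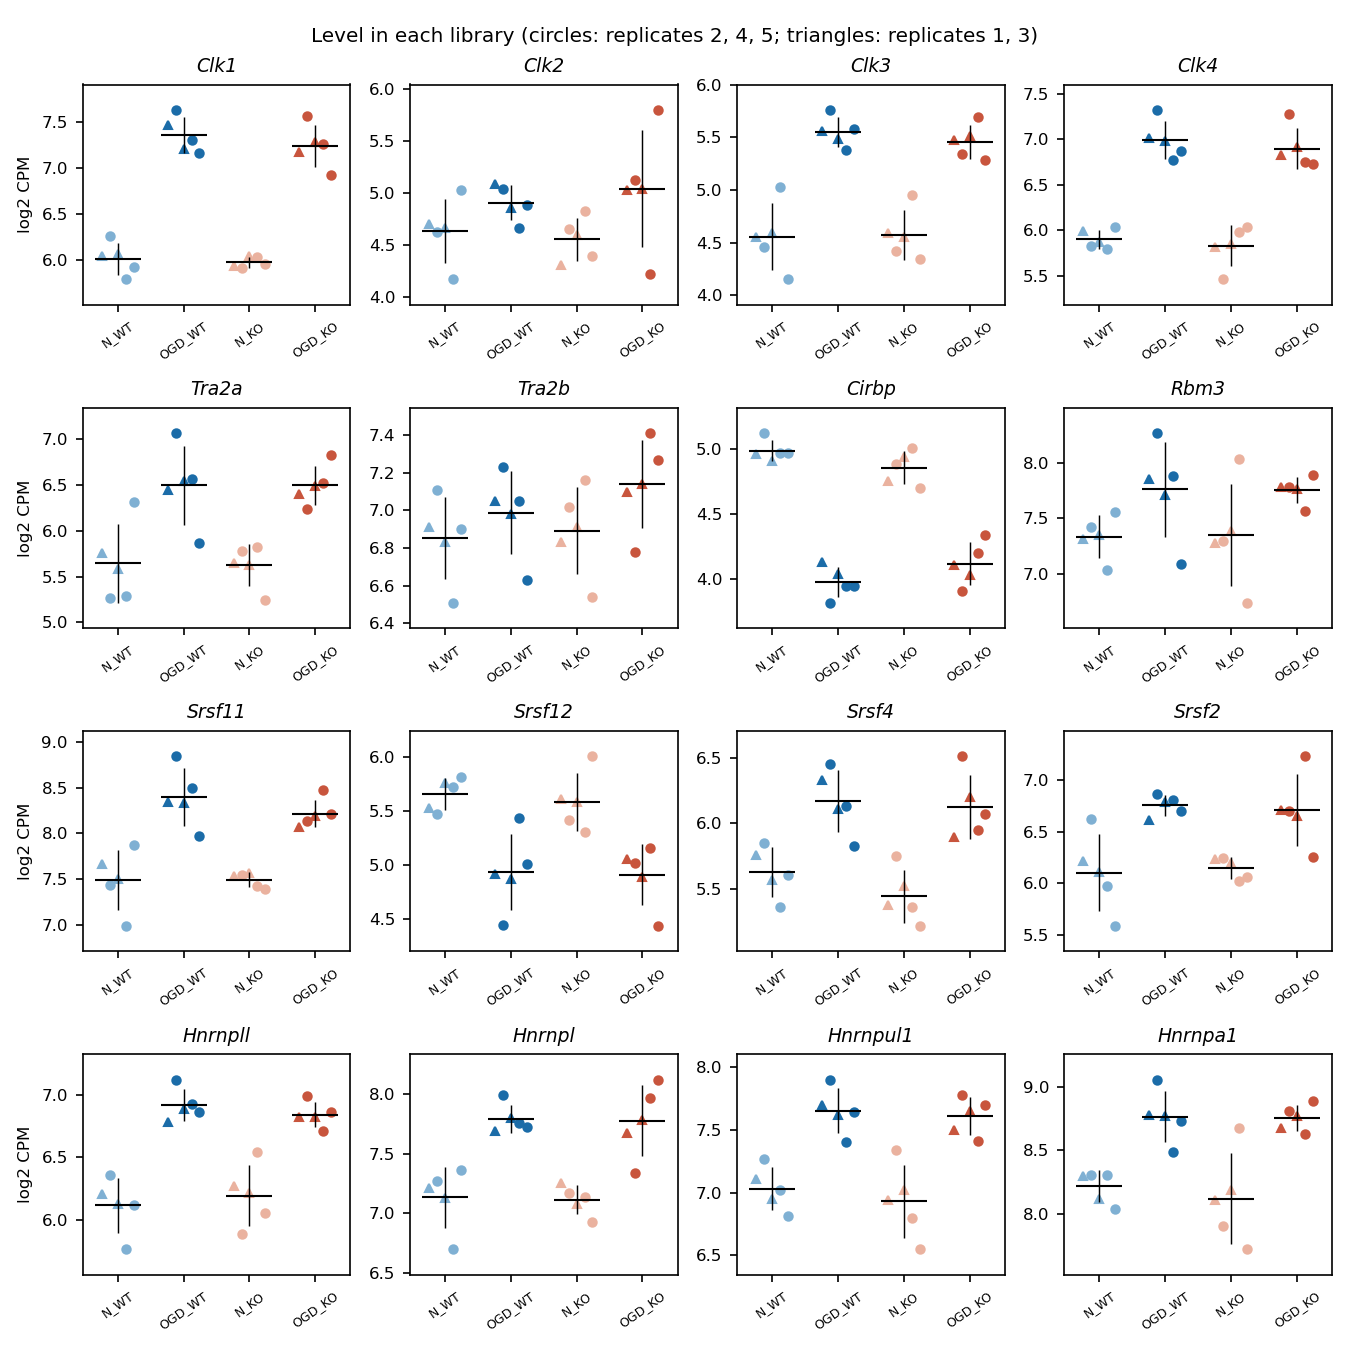
Log2 CPM (vertical axis, scaled per panel) of 16 genes in each of the 20 libraries, by group. Triangles are replicates 1 and 3, circles replicates 2, 4 and 5, horizontal bars group means and vertical bars 1 SD of 5 libraries. The OGD libraries of Clk1, Clk3 and Clk4 lie above and those of Cirbp and Srsf12 below all normoxic libraries of the same genotype, and the triangles sit nearer the group mean than most circles.

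Of the TRA2 proteins, Tra2a was called in both genotypes and Tra2b in neither, and the difference between them was not tested. Tra2a stood at 5.76, 5.27, 5.58, 5.29 and 6.31 log2 CPM in N_WT and at 6.44, 7.06, 6.54, 6.56 and 5.86 in OGD_WT. Replicate 5 ran against the rest: it was the highest normoxic and the lowest OGD library, and the groups overlapped through it alone. The rise in wild type was 1.8-fold (0.85 ± 0.21, limma adjusted p = 0.00209). In knockout Tra2a went from 5.65, 5.78, 5.62, 5.82 and 5.24 to 6.40, 6.24, 6.48, 6.52 and 6.82. Here the groups were apart, and the rise was 1.82-fold (0.87 ± 0.15, limma adjusted p = 0.000199). Over replicates 2, 4 and 5 Tra2a rose by 0.87 and 0.91 (limma adjusted p = 0.034 and 0.0301).

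Tra2b, whose RNA is regulated by an exon that introduces a premature stop, was measured at 6.91, 7.11, 6.83, 6.51 and 6.90 in N_WT and 7.05, 7.23, 6.98, 7.05 and 6.63 in OGD_WT. The knockout values were 6.83, 7.02, 6.91, 7.16 and 6.54 and 7.10, 6.78, 7.14, 7.41 and 7.27. The groups overlapped throughout. The estimates were 0.14 (-0.18 to 0.45) in wild type and 0.24 (-0.09 to 0.58) in knockout, with limma adjusted p of 0.484 and 0.226, so no change was detected and a rise of up to 0.58 log2 units in knockout was not excluded by the interval.

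Promoter sequence is shown, as examples, for 3 genes that changed in both genotypes and whose window held a motif searched. Other genes met the same terms, among them Clk3, Srsf11 and Hnrnpa1, and are not shown. The windows were the 250 bases before each annotated start in RefSeq (build GRCm38.p6), 48 windows for 35 of the 39 genes. Shares of all windows are over the 32851 windows of annotated genes, whether or not they were measured here. A gene can have several starts, and some lie inside the gene's span. Clk1, Hnrnpll, Hnrnpul2 and Rbm3 had no window. Among the 48 windows, only Clk4 and Tra2a held the palindromic cyclic AMP response element TGACGTCA (2 of 48 windows, 4.17%, against 1.55% of all 32851 windows). Both sites are printed with 11 bases on each side and the element in capitals. The Clk4 site is at chr11:51263038-51263067 on the plus strand and the Tra2a site at chr6:49264061-49264090 on the minus strand. In the Clk4 window the longest stretch free of annotated GENCODE exons began at 51263047. The first printed Clk4 bases thus lie outside that stretch, and the element lies within it. The element began 65 bases before the Clk4 start and 27 before a Tra2a start. That Tra2a start, and the site with it, lies inside the Tra2a span, which begins at chr6:49264248 on the minus strand.
Clk4: cccgccgtcccTGACGTCAcagacccctcg
Tra2a: ggtccgcccctTGACGTCAggcgccgggga
The mild-cold response element TCCCCGCC, on either strand, was in 4 windows (8.33%, against 4.64% of all), those of Cirbp, Hnrnpa0, Hnrnpf and Srsf7. Of these genes Cirbp fell in both genotypes, Srsf7 fell in wild type, Hnrnpf rose in both and Hnrnpa0 was called in neither. A stretch of 189 bases before a Cirbp start, free of annotated GENCODE exons, is shown, at chr10:80167589-80167777 on the plus strand. It lies inside the Cirbp span, which begins at chr10:80165990. The mild-cold response element and a hypoxia response element core (GCGTG) are in capitals.
Cirbp: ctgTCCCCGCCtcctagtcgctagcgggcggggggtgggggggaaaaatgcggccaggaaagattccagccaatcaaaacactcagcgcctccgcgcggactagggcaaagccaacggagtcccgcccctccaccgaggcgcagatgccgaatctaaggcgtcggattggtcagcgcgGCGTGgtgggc
The hypoxia response element core (ACGTG or GCGTG, either strand) was in 31 of the 48 windows (64.6%) and in 38.6% of all windows. The median GC content was 66.8% in the members' windows and 52.4% in all windows. Its part in the differences for these motifs was not tested, nor was that of the genes not measured here. A match describes letters in these windows and is not evidence of binding.

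Of the SR proteins, Srsf11, Srsf2, Srsf3, Srsf4 and Srsf9 rose in both genotypes. Srsf11, an arginine and serine-rich protein that associates with the U2 snRNP factor U2AF, rose the most. It stood at 7.66, 7.44, 7.50, 6.99 and 7.87 log2 CPM in N_WT and 8.34, 8.84, 8.33, 8.50 and 7.97 in OGD_WT. In knockout it stood at 7.53, 7.55, 7.57, 7.43 and 7.39 in normoxia and 8.07, 8.14, 8.19, 8.47 and 8.21 under OGD. The groups were apart in both genotypes, though OGD_WT replicate 5 exceeded normoxic replicate 5 by little. The rise was 1.87-fold in wild type (0.90 ± 0.18, limma adjusted p = 0.000327) and 1.65-fold in knockout (0.72 ± 0.14, adjusted p = 0.000481). Over replicates 2, 4 and 5 alone the adjusted p was 0.0157 in wild type and 0.0846 in knockout.

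Srsf2 (SC35), a component of nuclear speckles, was measured at 6.22, 6.62, 6.11, 5.98 and 5.59 in N_WT and 6.61, 6.87, 6.79, 6.81 and 6.70 in OGD_WT. The knockout libraries gave 6.24, 6.25, 6.20, 6.02 and 6.06 and 6.71, 6.70, 6.65, 7.23 and 6.26. In wild type the groups met at normoxic replicate 2 and OGD replicate 1, and in knockout the lowest OGD library was just above the highest normoxic one. Srsf2 rose by 0.65 ± 0.16 and 0.56 ± 0.16 log2 units (limma adjusted p = 0.00272 and 0.00972). Srsf4, which like Srsf2 contains a poison exon in its gene, had 5.76, 5.85, 5.57, 5.36 and 5.61 in N_WT and 6.33, 6.45, 6.11, 6.13 and 5.83 in OGD_WT. In knockout it had 5.38, 5.75, 5.52, 5.36 and 5.22 and 5.90, 6.51, 6.20, 5.95 and 6.07. Within each replicate number the OGD library was the higher in 5 of 5 pairs in both genotypes. Its rise was 0.54 ± 0.15 in wild type and 0.68 ± 0.15 in knockout (limma adjusted p = 0.00621 and 0.00165). With replicates 2, 4 and 5 only, neither gene passed in either genotype (adjusted p from 0.088 to 0.25).

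Srsf3, the smallest SR protein and a factor in RNA export, rose by 0.60 ± 0.14 and 0.60 ± 0.16 log2 units in wild type and knockout (limma adjusted p = 0.00193 and 0.0062). Srsf9 rose by 0.47 ± 0.15 and 0.50 ± 0.16, with limma adjusted p of 0.015 and 0.0199, and was lost without replicate 3 in both. Srsf6 rose in wild type (0.39 ± 0.14, limma adjusted p = 0.0284) and was at 0.34 ± 0.15 in knockout (adjusted p = 0.0664). Its wild-type call was lost without replicate 1, 3 or 5. Srsf1 (SF2/ASF), Srsf5 and Srsf10 were called in neither genotype, with estimates between 0.12 and 0.27.

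Srsf12 and Srsf7 went the other way. Srsf12, which can antagonise other SR proteins in splicing assays, stood at 5.53, 5.48, 5.76, 5.73 and 5.82 log2 CPM in N_WT and 4.92, 4.45, 4.87, 5.44 and 5.01 in OGD_WT. In knockout it stood at 5.62, 5.42, 5.59, 5.31 and 6.01 and 5.06, 5.02, 4.89, 5.16 and 4.44. Every OGD library was below every normoxic library of its genotype. The fall was 1.66-fold in wild type (-0.73 ± 0.16, limma adjusted p = 0.00113) and 1.6-fold in knockout (-0.68 ± 0.17, adjusted p = 0.00315). Over replicates 2, 4 and 5 the estimates stayed at -0.71 and -0.71 with adjusted p of 0.0932 and 0.101. Srsf7 (9G8), an SR protein with a zinc knuckle, fell in wild type from 6.50 ± 0.20 to 6.09 ± 0.18 log2 CPM (SD, n = 5), a change of -0.41 ± 0.15 (limma adjusted p = 0.0263). The call was lost without replicate 1 or 3, and in knockout Srsf7 was at -0.32 (adjusted p = 0.117).

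Among the hnRNPs, 9 rose in both genotypes and none fell in either. Hnrnpll, an hnRNP known from the splicing of CD45 in lymphocytes, had the largest change of the hnRNPs in wild type. In knockout Hnrnpul1 and Hnrnpl had larger estimates. Its log2 CPM was 6.21, 6.36, 6.13, 5.77 and 6.12 in N_WT and 6.78, 7.12, 6.89, 6.93 and 6.86 in OGD_WT. In knockout it was 6.27, 5.89, 6.22, 6.54 and 6.06 and 6.82, 6.99, 6.82, 6.71 and 6.86. The groups did not overlap in either genotype, and the OGD libraries were the tighter group in both. The rise was 1.74-fold (0.80 ± 0.14, limma adjusted p = 0.000135) and 1.56-fold (0.64 ± 0.15, adjusted p = 0.00179). With replicates 2, 4 and 5 only, the adjusted p was 0.0318 in wild type and 0.129 in knockout.

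Hnrnpl, its paralogue that binds CA repeats, was measured at 7.21, 7.27, 7.13, 6.70 and 7.36 in N_WT and 7.69, 7.99, 7.80, 7.76 and 7.72 in OGD_WT. The knockout values were 7.25, 7.17, 7.08, 7.14 and 6.93 and 7.67, 7.34, 7.78, 7.97 and 8.12. The wild-type OGD libraries spanned a narrow range, and those of the knockout a wider one that still cleared normoxia. Hnrnpl rose by 0.66 ± 0.15 and 0.66 ± 0.16 log2 units (limma adjusted p = 0.0012 and 0.00271). Hnrnpul1, a relative of the nuclear scaffold protein hnRNP U, stood at 7.11, 7.27, 6.95, 7.02 and 6.81 in N_WT and 7.70, 7.90, 7.62, 7.40 and 7.64 in OGD_WT. In knockout it stood at 6.94, 7.34, 7.02, 6.80 and 6.55 and 7.50, 7.78, 7.65, 7.41 and 7.70. Its groups were apart in both genotypes. The rises were 0.62 ± 0.14 and 0.68 ± 0.16 (limma adjusted p = 0.00149 and 0.00227). Over replicates 2, 4 and 5 alone neither passed, with adjusted p from 0.104 to 0.178.

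Hnrnpa1, a silencer-binding hnRNP that antagonises Srsf1, had 8.30, 8.31, 8.12, 8.31 and 8.04 log2 CPM in N_WT and 8.78, 9.06, 8.77, 8.49 and 8.73 in OGD_WT. In knockout it had 8.11, 7.90, 8.19, 8.68 and 7.72 and 8.68, 8.81, 8.77, 8.63 and 8.89. In knockout the groups overlapped through replicate 4 alone. The rise was 0.55 ± 0.15 in wild type and 0.64 ± 0.17 in knockout (limma adjusted p = 0.00434 and 0.00671), and without replicate 3 the wild-type adjusted p was 0.0536. Without replicates 1 and 3 it was 0.267 in wild type and 0.184 in knockout. The other hnRNPs that rose in both genotypes were Hnrnph1 (0.52 and 0.59), Hnrnpf (0.50 and 0.46), Hnrnpk (0.43 and 0.48), Hnrnpc (0.42 and 0.41) and Hnrnpa3 (0.39 and 0.43), with wild-type and knockout log2 fold changes in that order. Each of these 5 lost its call in at least 1 genotype when a replicate was left out. Hnrnpdl was called in wild type (0.43 ± 0.15, limma adjusted p = 0.027), and its knockout estimate of 0.35 had an interval of -0.01 to 0.71. The wild-type call was lost without replicate 1, 2, 3 or 4 (adjusted p up to 0.112) and over replicates 2, 4 and 5 (0.274).

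No change was detected in either genotype for 10 hnRNPs. Hnrnpa0, Hnrnpa2b1, Hnrnpab, Hnrnpd, Hnrnph3, Hnrnpr and Hnrnpu had estimates above 0 in both genotypes, the largest 0.35 for Hnrnph3 in knockout. Hnrnph2 and Hnrnpul2 were below 0 in both, down to -0.28 for Hnrnph2 in wild type, and Hnrnpm lay at -0.04 and 0.03. Related genes thus gave different values, as with Hnrnph1 and Hnrnph2 or Hnrnpul1 and Hnrnpul2, but no test compared them. Reads of several members could be shared with other annotated genes, and whether those are copies of the member was not tested. Of the 50-base words of Hnrnpf transcripts, 36.8% also occur in other annotated genes, as do 28.2% for Hnrnpa1 and 27.1% for Hnrnpa3. The share was 15.9% for Hnrnph2, 14.5% for Hnrnpk and 13.5% for Hnrnpm. The values of these 6 genes are uncertain for that reason, by an amount that was not measured. Smaller shares were found for others, among them Srsf5 (10.1%), Srsf3 (10%), Srsf10 (9.41%), Rbm3 (8.38%), Hnrnpc (8.28%) and Tra2b (7.77%). For Clk1, Clk3, Clk4 and Cirbp the share was at most 0.22%.

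Of the cold-inducible genes, Cirbp fell in both genotypes and Rbm3 was called in neither. Cirbp stood at 4.96, 5.12, 4.91, 4.97 and 4.97 log2 CPM in N_WT and 4.13, 3.82, 4.04, 3.95 and 3.95 in OGD_WT. In knockout it stood at 4.75, 4.88, 4.94, 5.01 and 4.70 and 4.11, 3.91, 4.03, 4.20 and 4.34. The 5 OGD libraries lay below all normoxic libraries in both genotypes, and in wild type the gap was wider than the range of either group. The fall was 2.01-fold in wild type (-1.01 ± 0.13, limma adjusted p = 4.27e-06) and 1.67-fold in knockout (-0.74 ± 0.14, adjusted p = 0.000325). Over replicates 2, 4 and 5 alone it was -1.11 (adjusted p = 0.00391) and -0.71 (adjusted p = 0.0922).

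Rbm3 was measured at 7.31, 7.42, 7.35, 7.03 and 7.56 in N_WT and 7.86, 8.27, 7.71, 7.88 and 7.09 in OGD_WT. The knockout values were 7.28, 7.30, 7.39, 8.04 and 6.74 and 7.78, 7.78, 7.77, 7.57 and 7.89. Replicate 5 in wild type and replicate 4 in knockout were lower under OGD, and the other 4 pairs in each genotype were higher. The estimates were 0.43 ± 0.18 and 0.40 ± 0.19, and the limma adjusted p-values of 0.0574 and 0.0938 missed the threshold. Leaving out 1 replicate moved the adjusted p between 0.000368 (without replicate 5) and 0.217 in wild type and between 0.00743 (without replicate 4) and 0.297 in knockout, and the lowest value in each is the one without the pair that ran the other way. Across replicates 2, 4 and 5 it was 0.419 and 0.488, and with the replicate block 0.0901 and 0.148.

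Gene-level values do not separate transcript forms, and these families are rich in non-coding ones. GENCODE M21 lists a transcript marked for nonsense-mediated decay in 27 of the 39 genes (69.2%), against 28.8% of the 12126 protein-coding genes of the wild-type table. A retained-intron transcript is listed for 30 of the 39 (76.9%) against 59.3%. Clk1 has 7 retained-intron transcripts of 13 and Clk4 7 of 14, Srsf11 has 11 of 19, and Srsf12 has none of 2. Cirbp, which fell, has 4 of 7, while Hnrnpf and Hnrnpa1, which rose in both genotypes, have 0 of 10 and 0 of 5. Transcripts marked for nonsense-mediated decay are 0 of 10 for Hnrnpf but 2 of 5 for Hnrnpa1. Whether the number of such forms goes with the direction of change was not tested. How the reads were divided among such forms was not analysed here.

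Other splicing genes were counted in 6 lists, to be read against 21.6% of all genes rising and 22.8% falling in wild type and 21% and 19.9% in knockout. Of 40 SR-related proteins (RS domain proteins outside the Srsf family), 16 rose (40%) and 2 fell in wild type and 14 rose (35%) and 1 fell in knockout, with medians of 0.34 and 0.36 against -0.03 and 0.00 for all genes. Acin1, a speckle-associated apoptotic chromatin factor, rose by 0.99 and 1.05 log2 units and Rsrc2 by 0.93 and 0.97. Zranb2 fell by 0.45 and 0.43, while Srek1ip1 fell in wild type (-0.64) and was at -0.49 in knockout (limma adjusted p = 0.113). Of 61 core spliceosome proteins, 19 rose (31.1%) and 2 fell (3.28%) in each genotype, with medians of 0.24 and 0.26. Sf3b1, the U2 snRNP subunit that contacts the branch site, rose by 0.89 and 0.75, and Snrnp48 of the minor spliceosome by 0.88 and 0.97. Sf3b6 fell by 0.45 and 0.38, and Lsm7 fell in wild type (-0.42) and was at -0.18 in knockout.

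Of 34 other hnRNP-like proteins, 12 rose (35.3%) and 3 fell in wild type and 7 rose and 3 fell in knockout, with medians of 0.30 and 0.26. The 7 are 20.6% of the list, close to the share of all genes. Ptbp1, the polypyrimidine tract binding protein that is low in neurons, rose by 1.11 and 1.19 log2 units, and Fubp3 by 0.93 and 0.97. Ralyl, an hnRNP C-like protein expressed in brain, fell by 1.37 and 1.36, and G3bp2 of stress granules fell by 0.75 and 0.67. Of 16 genes for SR protein kinases, phosphatase and nuclear import, 5 rose (31.2%) and 2 fell in wild type and 5 rose and 1 fell in knockout (medians 0.27 and 0.14). Tnpo1, a nuclear import receptor, rose by 0.69 and 0.61, and Ppp1cc, a catalytic subunit of protein phosphatase 1, by 0.56 and 0.57. Dyrk2 fell by 0.47 and 0.48, and Ppp1r8, an inhibitor of the same phosphatase, fell in wild type (-0.42) and was at -0.31 in knockout.

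Of 27 neuronal and tissue splicing regulators, 6 rose (22.2%) and 8 fell (29.6%) in wild type and 5 rose (18.5%) and 8 fell (29.6%) in knockout, with medians of 0.01 and 0.02. Qk, which is high in glia, rose by 1.09 and 1.05 and Mbnl2 by 1.01 and 0.90. Elavl2, a neuronal Hu protein, fell by 0.95 and 0.96, and Celf6 by 0.89 and 1.02. Of 25 genes of nonsense-mediated decay and the exon junction complex, 5 rose (20%) and 1 fell (4%) in wild type and 3 rose (12%) and 1 fell (4%) in knockout, with medians of 0.04 and 0.07. The shares that rose were below those of all genes. Upf2 rose by 0.72 and 0.87 and Smg1 by 0.53 and 0.62, while Ncbp2, the small subunit of the nuclear cap-binding complex, fell by 0.92 and 0.69. With replicates 2, 4 and 5 only, at most 4 genes of any of these 6 lists rose and at most 3 fell, where 8.01% and 8.28% of all genes rose and 8.93% and 8.01% fell. The 4 were of the 61 core spliceosome genes (6.56%). Of the 27 neuronal and tissue regulators, 2 rose (7.41%) and 3 fell (11.1%) in wild type. In knockout 3 rose and 3 fell (11.1% each), so some of these shares were above those of all genes. Of the 23 genes named here from the lists, 12 were then called in wild type (Acin1, Celf6, Elavl2, Fubp3, Mbnl2, Ncbp2, Ptbp1, Qk, Ralyl, Rsrc2, Sf3b1 and Snrnp48). In knockout 11 were, the same without Ncbp2 and Sf3b1 and with Upf2.

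**Figure D3:**
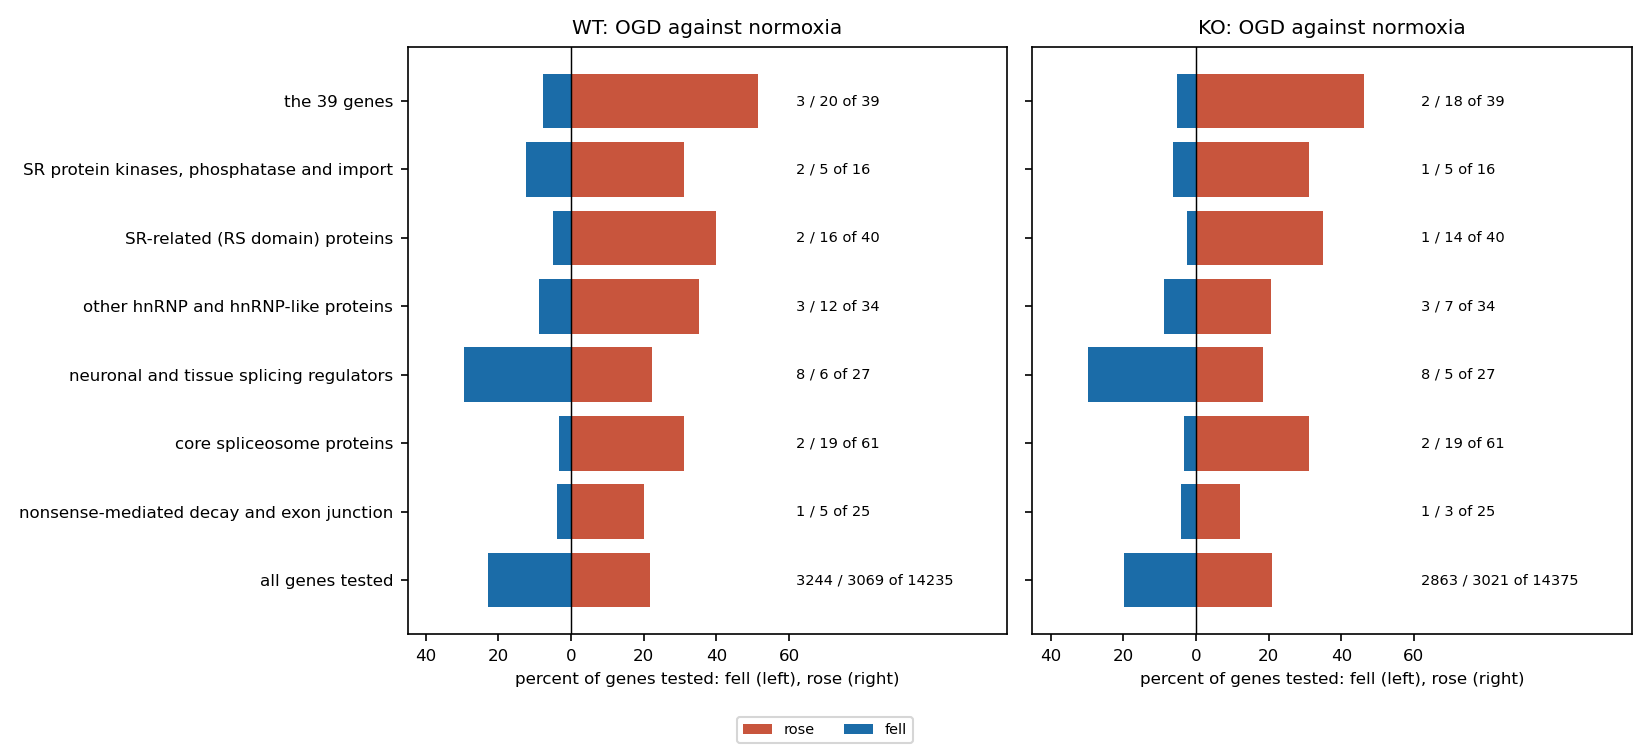
Percent of genes tested that rose (right, red) or fell (left, blue) under OGD at a limma adjusted p under 0.05, for the 39 genes, 6 lists of other splicing genes and all genes, in wild type (left panel) and knockout (right panel). The figures beside the bars are fell, rose and tested. The 39 genes have the longest right bar, at 20 of 39 and 18 of 39, and the neuronal regulators the longest left bar, at 8 of 27 in each genotype.

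Markers of cell types moved with the same treatment. Their counts are over all 5 replicates and were not repeated over replicates 2, 4 and 5 alone. Among all genes, 21.6% rose and 22.8% fell in wild type, and 21% rose and 19.9% fell in knockout. All 18 neuron markers were in the tables and none was at 0 throughout a group. In wild type 12 of 18 neuron markers fell and none rose, and their summed level went from 5540 to 6890 CPM over the N_WT libraries to 3460 to 6010 over OGD_WT. In knockout 14 of 18 fell, from 5890 to 6100 CPM to 3620 to 4800. Of 10 astrocyte markers tested, 7 rose and 1 fell in wild type (1260 to 1570 CPM, then 2040 to 2550) and 5 rose in knockout (987 to 1710, then 1690 to 2520). Of 13 progenitor and proliferation markers, 9 rose in each genotype and 1 fell in wild type (673 to 868 CPM, then 1110 to 1770, and 618 to 932, then 1290 to 1690). Only 1 of 12 microglia markers was in the tables, at 3.42 to 7.97 CPM. Of 4 endothelial and mural markers 3 rose in each genotype and 1 fell in wild type, at 10.6 to 26.6 CPM summed. Of 8 oligodendrocyte lineage markers 1 rose and 2 fell in wild type and 3 rose in knockout, and of 3 and 5 fibroblast and meningeal markers 1 rose in each. The part of these shifts in the changes of the splicing genes was not tested, and in bulk RNA fewer cells of a type and less RNA per cell cannot be told apart.

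The knockout comparisons ask whether loss of ciRS-7 alters these genes at rest or under OGD. None of the 39 genes was called in either. In normoxia 5 of 14152 genes were called (0.0353%), and 256 (1.81%) had an unadjusted limma p under 0.05, none of them a member. Under OGD 4 of 14185 were called (0.0282%), and 253 (1.78%) had an unadjusted p under 0.05, again none a member. The estimates of the 39 genes, knockout minus wild type, ran from -0.15 to 0.15 in normoxia and from -0.16 to 0.17 under OGD. Their 95% intervals reached as far as -0.56 and 0.86 in normoxia and -0.66 and 0.60 under OGD, so differences of that size were not excluded for the least precise members. The 3 members with the smallest p in normoxia were Srsf4 at -0.15 ± 0.14, Cirbp at -0.10 ± 0.12 and Hnrnpll at 0.11 ± 0.15 (SE, limma adjusted p = 1). Under OGD they were Cirbp at 0.16 ± 0.14, Tra2b at 0.17 ± 0.16 and Srsf11 at -0.16 ± 0.17 (limma adjusted p = 1). With replicates 2, 4 and 5 only, no member was called in either comparison, against 0.205% and 0.127% of all genes.

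**Figure D4:**
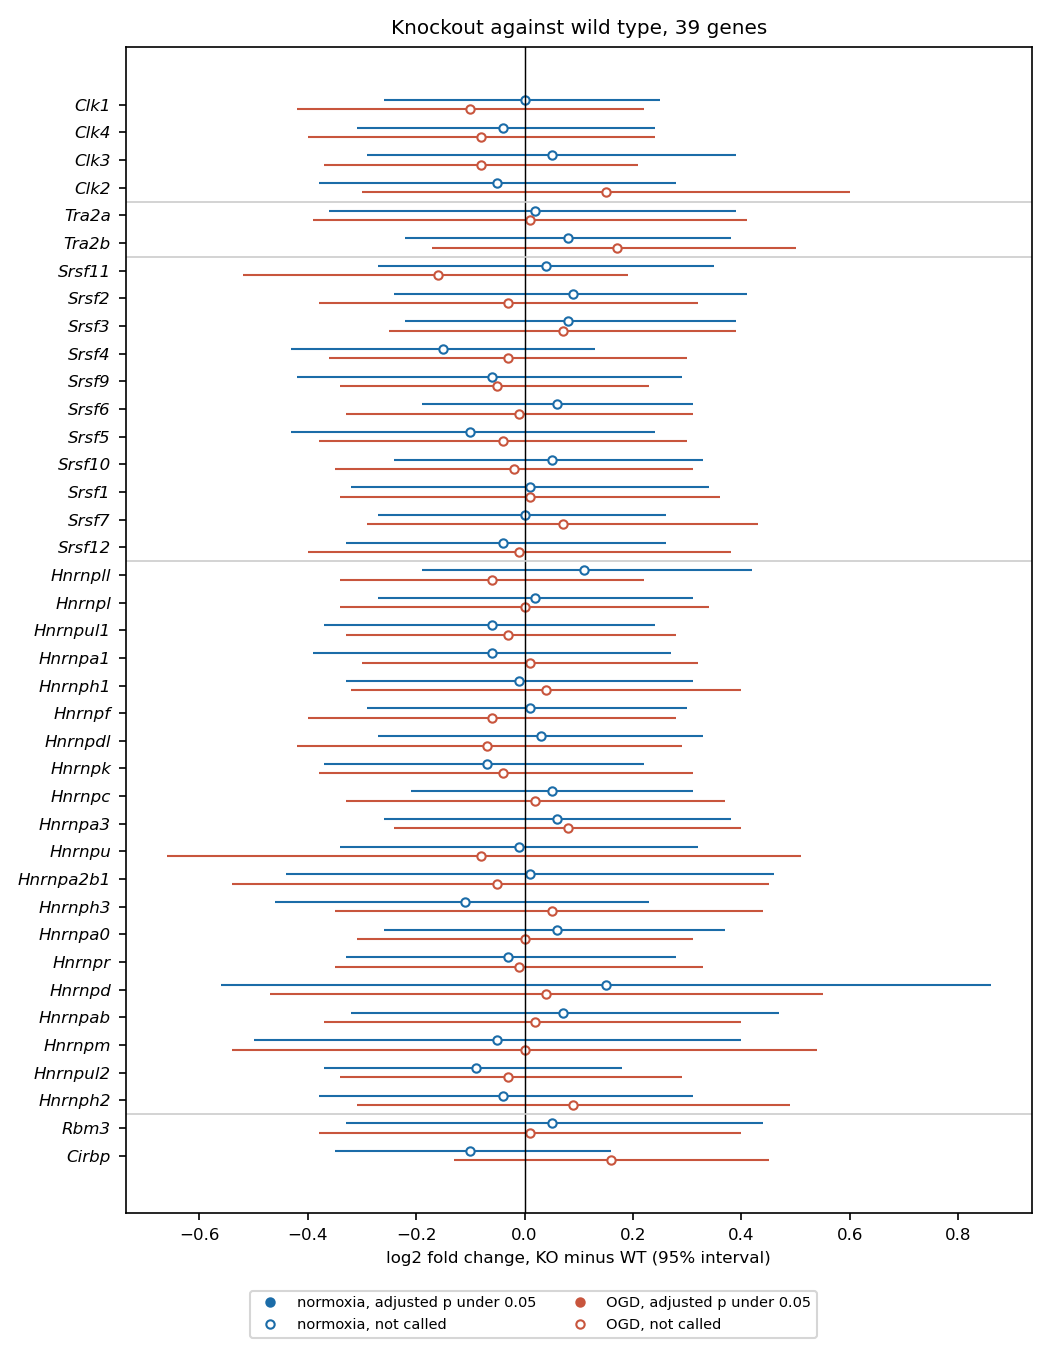
Log2 difference between knockout and wild type (horizontal axis, knockout minus wild type) of each of the 39 genes in normoxia and under OGD. Points are limma estimates from 5 against 5 libraries, bars are 95% intervals, and no point is filled because no adjusted p was under 0.05. The estimates lie between -0.16 and 0.17, and every interval includes 0.

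The response to OGD was then compared between genotypes by an interaction term over all 20 libraries. No member was called and 0% of the 13688 genes tested were, with 100 genes (0.731%) at an unadjusted limma p under 0.05 and no member among them. The difference of responses, knockout minus wild type, ran from -0.19 to 0.26 over the 39 genes. Cirbp had the largest, 0.26 ± 0.19 (SE, 95% interval -0.13 to 0.66), which corresponds to its smaller fall in knockout (limma adjusted p = 1). Srsf11 was at -0.19 ± 0.25 and Hnrnpll at -0.17 ± 0.23. The 3 genes called in wild type alone (Hnrnpdl, Srsf6 and Srsf7) were thus not shown to respond differently in knockout.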

How the data were processed

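RNA of 20 cultures (5 per group) was sequenced from strand-specific total RNA libraries, per the labels' protocols. Reads were aligned to mm10, per the submitters' processing notes. The aligner, counting, annotation, gene filter and scaling are not given in the sources used here. The authors deposited 4 tables of log2 CPM, 1 per comparison, with 14152 to 14375 genes.

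Between 45.51% and 92.78% of a library's deposited values matched whole reads (within 0.05 reads, up to 500 reads). The extremes of every gene within a group of 5 sat at the positions that clipping at the 10th and 90th percentile gives (weights 0.6 and 0.4). No label states this step. With it undone, at least 99.91% of values were whole, and the reads recovered from the 2 tables that hold a library were equal for at least 99.978% of genes. All results use values with the clipping undone. Depth is the sum of the recovered reads over the genes in the table. It gave 118 reads or more per library for every one of the 16 genes described library by library.

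Each comparison was fitted in its own table with limma 3.58.1 in R 4.3.3 (lmFit, eBayes with an intensity trend), with no block or batch term, over all genes. Calls are Benjamini-Hochberg adjusted p-values under 0.05, two-sided. Intervals are limma's 95% intervals. The interaction used recovered reads of 13688 genes on a joint log2 CPM scale (prior count 2) with the culture as a block (consensus correlation -0.169). The fits were checked on simulated data.

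Same-numbered N and OGD libraries share a genotype and a batch label, which pairs them. The correlation of their deviations from the group means lay between -0.55 and 0.08 in wild type and between -0.74 and -0.09 in knockout. Across genotypes the numbers share a batch for number 1 alone.

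The genes were chosen by symbol, and the lists of other splicing genes and markers were written from general knowledge, with earlier results of these data known. Values for every library are given for the CLK, TRA2 and cold-inducible genes and for the 4 SR proteins and 4 hnRNPs with the largest mean change among those called in both genotypes. In each list up to 2 rises and 2 falls are named by size in wild type, and in the knockout comparisons the 3 smallest p-values. Sequences are from RefSeq promoter tables (GRCm38.p6), and shared words were counted in GENCODE M21 transcripts. The motifs were searched on both strands of 250-base windows. Alternatives changed the clipping, block, batch, filter, pseudocount, scaling, trend, library weights and replicates. The use of replicates 2, 4 and 5 alone and the centring on the median were added after seeing the data.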

Additional observations from a re-analysis of the deposited data

How the results depend on the processing

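Over 512 alternative values of the 16 genes described library by library, in the comparisons of OGD with normoxia, 473 kept direction and side of the threshold, 25 no longer passed, 14 newly passed and none reversed. For the 3 members with the smallest p in each knockout comparison and in the interaction, 164 of 165 alternative values kept theirs and 1 newly passed (Tra2b under OGD with library weights). Called under all 16 alternatives were Cirbp, Clk1, Clk3, Clk4, Hnrnpll, Srsf11 and Tra2a in wild type and Clk1, Clk3, Clk4 and Tra2a in knockout. The 4 SR proteins and 4 hnRNPs described library by library were chosen for large changes called in both genotypes, which favours stable calls. Called members not described in that way kept their calls in 9 (Hnrnpa3) to 15 (Srsf3) of 16 alternatives in wild type. In knockout the range was 5 (Hnrnpa3) to 14 (Srsf3). Library weights give more weight to libraries nearer their group mean, and the weights themselves were not examined. With library weights, 36 of the 39 genes and 12309 of all genes were called in wild type and 31 and 10573 in knockout. For knockout against wild type they called 926 genes in normoxia, and 4 of the 39 genes and 4757 of all genes under OGD. With replicates 2, 4 and 5 only the counts were 7 and 2411 in wild type, 4 and 2341 in knockout, and 29 and 18 genes in the knockout comparisons. Restricting to batch 3 gave 4 and 2341 in knockout, where it leaves the same libraries, and 2 genes for the knockout in normoxia. In normoxia the knockout called 9 genes with the clipping left in, 3 with the replicate block and 3 among genes averaging 1 log2 CPM or more. Under OGD it called 12 with the clipping left in, 2 with the replicate block and 2 with batch as a covariate. Leaving out replicates in turn, the members called ranged from 13 to 23 in wild type and from 14 to 19 in knockout, and all genes called from 4313 to 6993 and from 4025 to 5923. In the knockout comparisons no member was called and the genes called ranged from 3 to 5 in normoxia and from 1 to 7 under OGD. The causes of these differences were not tested. Depth of 7071506 to 16658618 reads per library was not varied.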
